A study of Mus musculus with 3 samples.

Results

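Collagen genes, taken as all gene symbols of the form Col followed by a number, the letter a and a number, were examined in RNA-seq libraries of mouse heart tubes at embryonic day 9.5. The count files held 43 such genes among 23337 in all, namely 11 of the fibrillar class, 6 of the type IV chains of basement membranes and 26 of other kinds. The heart tubes came from Sox7-null embryos, labelled SOX7 (-/-), with 2 libraries, and from wild-type embryos, with 1 library, and all 3 were stranded total RNA libraries from tubes of the same stage. The sources used here name neither the strain nor the null allele, nor whether a library held 1 embryo or a pool. The p-values thus rest on how far the 2 null libraries lay apart, and that distance may be technical. The series asks which transcripts of the developing heart differ when SOX7, a transcription factor of endothelium and endocardium, is absent. Sox7 itself had 2 and 7 reads in the null libraries, against 222 in the wild type. Genes received 13139823 and 13618338 reads in Sox7-null 1 and Sox7-null 2, against 13789388 in the wild type.

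Collagens are secreted proteins built from 3 alpha chains wound into a helix, and each gene encodes 1 chain. Fibrillar collagens (types I, II, III, V, XI and others) form the rope-like fibrils of connective tissue. Type IV collagen forms the sheet-like network of basement membranes, on which the endocardium, the myocardium and the epicardium rest. The other members include the beaded filaments of type VI, the multiplexins that are bound to basement membranes (types XV and XVIII), the collagens that decorate fibrils (the FACIT group, such as types IX, XII and XIV), short network formers (types VIII and X) and collagens that span the cell membrane. In the looping heart tube the matrix between endocardium and myocardium, the cardiac jelly, is rich in hyaluronan and proteoglycans and holds several collagens. Prolyl and lysyl hydroxylases in the endoplasmic reticulum modify the chains before they fold, and these enzymes need oxygen.

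Of the 43 genes, 29 had 10 or more reads in at least 1 library, and these were the 29 that passed the filter on low counts and were tested. The lowest inside this limit were Col6a3, with 11 and 11 reads in the null libraries, against 8 in the wild type, and Col25a1, with 16 and 15 against 10. Just outside it lay Col20a1, with 9 and 3 reads against 3. Of the 29, 25 had at least 10 reads in the wild type, and 4 (Col6a3, Col7a1, Col14a1 and Col16a1) entered through the null libraries. A gene that enters in this way had to be higher in the null libraries. Counts over the 29 therefore describe them only.

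Collagen genes as a whole took a larger part of the null libraries. Together they had 24323 and 18316 reads in Sox7-null 1 and Sox7-null 2, against 10714 in the wild type, or 1804 and 1329 CPM against 808 CPM (gene reads brought to a common library size, after TMM scaling). Most of the difference lay in the basement membrane class, with 894 and 537 CPM in the null libraries against 202 in the wild type. The fibrillar class had 595 and 516 CPM against 395, and the other members 316 and 276 CPM against 210. Type IV genes thus held 49.5% (95% exact interval 48.9 to 50.2) and 40.4% (39.7 to 41.2) of collagen reads in the null libraries, against 25.1% (24.2 to 25.9) in the wild type. Fibrillar genes held 33.0% (32.4 to 33.6) and 38.8% (38.1 to 39.5) in the null libraries and 48.9% (48.0 to 49.9) in the wild type. The multiplexins, also bound to basement membranes, are counted with the other members. Col18a1, with nearly all multiplexin reads, had 177 and 184 CPM in the null libraries, against 153 in the wild type. As a share of collagen reads the multiplexins held 9.83% and 13.8% in the null libraries, against 18.9% in the wild type. This share fell while that of type IV rose, although the CPM of Col18a1 was not lower. These shares are ratios within a library and need no scaling. Their intervals, like all those below, come from read counts and hold counting error alone, so the spread between libraries is not in them. The labels name no molecular identifiers, and PCR copies of 1 molecule can be counted more than once, so the intervals may be too narrow. In bulk tissue a change in the number of cells of a type and a change in RNA per cell cannot be told apart.

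**Figure D1:**
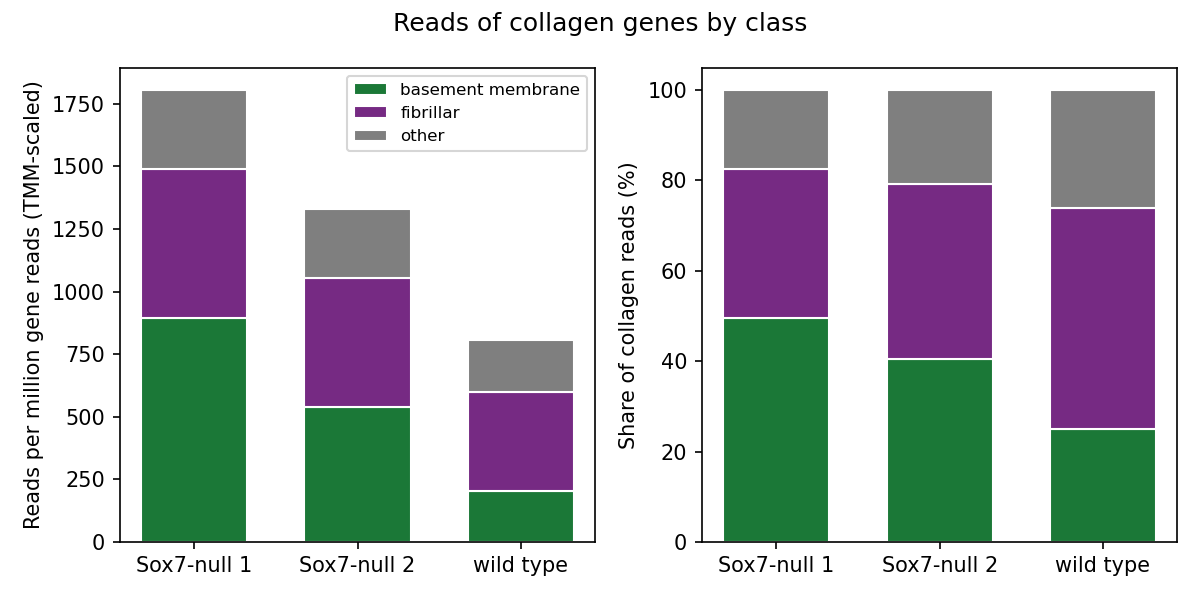
Reads of collagen genes by class in each library, as CPM after TMM scaling (left) and as a percentage of all collagen reads (right), each stacked bar being 1 library. The basement membrane class, here type IV without the multiplexins, is the largest in both null libraries, at 49.5% and 40.4% of collagen reads. The fibrillar class is the largest in the wild type, at 48.9%.

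Levels of different genes were compared per length, as CPM divided by the kilobases of the longest annotated transcript (RPKM). The order began in Sox7-null 1 with Col4a1 (68.8 RPKM), Col4a2 (51.2), Col2a1 (47.2) and Col18a1 (31.6), while Sox7-null 2 began with Col2a1 (56.1), Col4a1 (38.6), Col18a1 (32.8) and Col4a2 (30.9). In the wild type the 3 highest collagens were Col2a1, at 28.8 RPKM, Col18a1, at 27.3, and Col3a1, at 21.1, with Col4a1 next at 14.4 and Col4a2 at 8.59. The order depended on the length used. Per kilobase of all annotated exons Sox7-null 2 began with Col4a1 at 34.2, ahead of Col2a1 at 31.0, and the wild type with Col18a1 at 21.7, Col2a1 at 15.9, Col4a1 at 12.8 and Col3a1 at 12.0, while Sox7-null 1 kept its first 4 genes in order. Per longest transcript, Col2a1 and Col18a1 in the wild type lay closer than the null libraries did in Col2a1. Col18a1 and Col4a2 in Sox7-null 2 differed by less than the 2 null libraries differed in Col4a2. Col1a1, a chain of the type I collagen of most connective tissue, ranked 7th and 10th in the null libraries, at 11.8 and 5.05 RPKM, and had 2.30 RPKM in the wild type, where it was not among the highest 10.

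**Figure D2:**
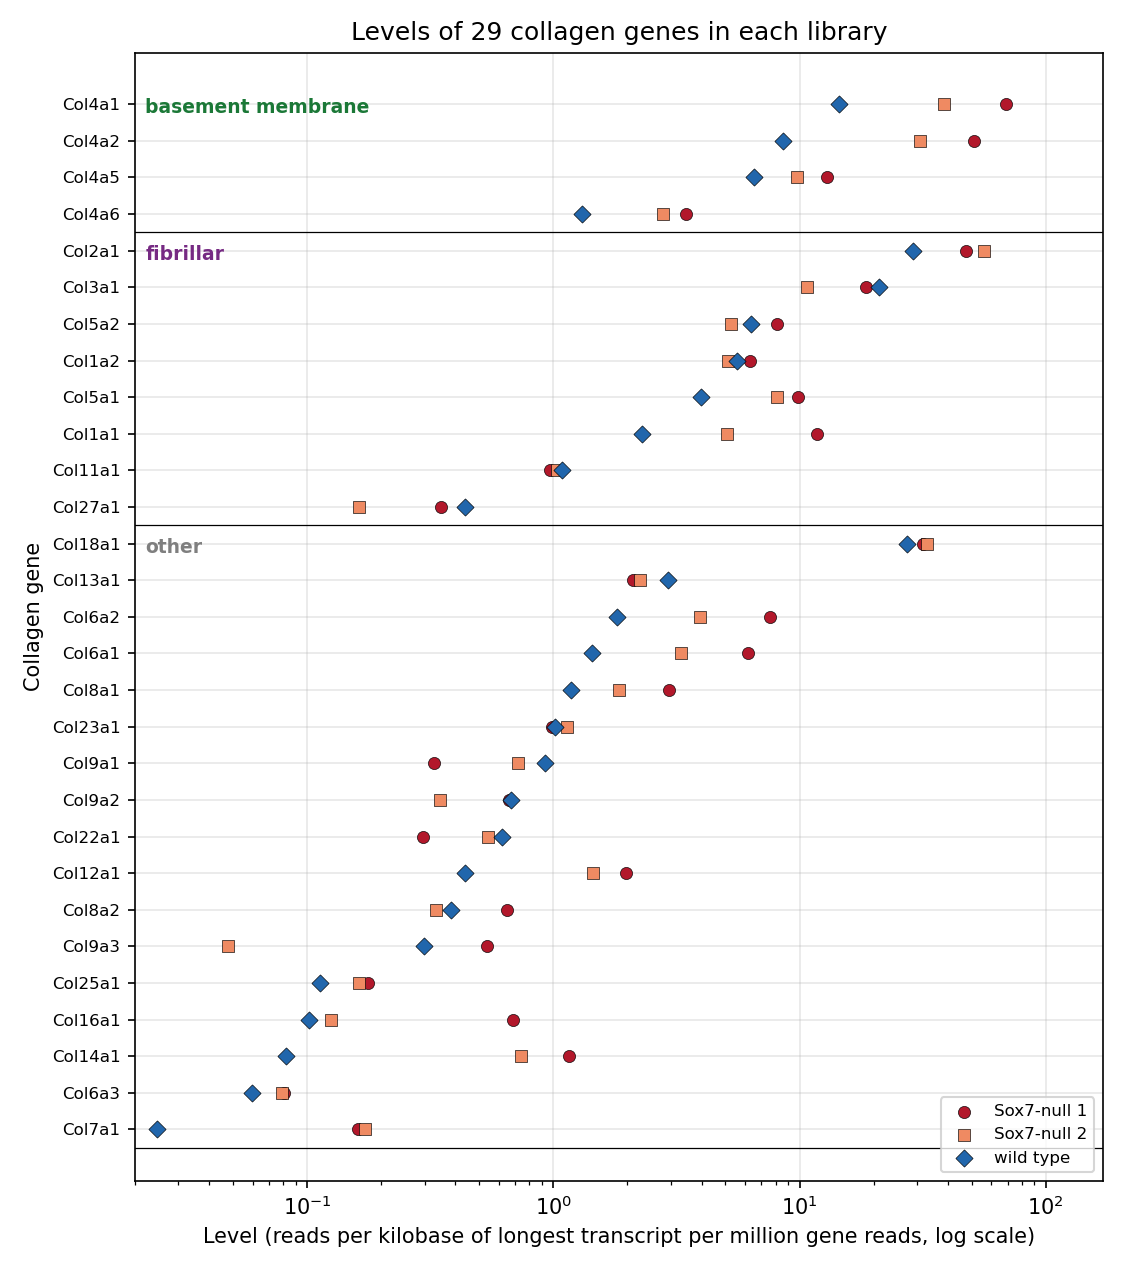
Levels of the 29 collagen genes with 10 or more reads in a library, as RPKM on a log axis, with genes in rows grouped by class and 1 point for each library. All 4 type IV genes have both null libraries to the right of the wild type. In all, 17 of the 29 do so, against 43.1% of all genes tested. Another 7 genes, among them Col3a1, Col13a1 and Col9a1, have both to the left of it, against 43% of all genes.

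Sox7-null and wild type were compared gene by gene with edgeR's quasi-likelihood test on the counts of all 13334 genes that passed the filter, with Benjamini-Hochberg adjusted p-values taken across that whole table and a threshold of 0.05. Of all genes tested, 11.3% were called higher and 10.2% lower. Of the 29 collagen genes 12 were called higher (41.4%) and 0 lower. Of the 25 with at least 10 reads in the wild type 10 were called higher, and of the other 4, 2 were. An unadjusted edgeR p under 0.05 was found for 13 of the 29 collagens and for 4712 of all 13334 genes. DESeq2 called 9 of the 29 higher and 0 lower, beside 7.06% and 5.41% of all genes, and limma-voom 11 and 0, beside 9.39% and 9.73%. With no filter on low counts edgeR called 0 of 17242 genes, collagens included, and 4113 genes and 12 collagens had an unadjusted p under 0.05. Sox7-null 1 was above Sox7-null 2 in 21 of the 29. By a rule without a test, 10 of the 29 (34.5%) were at least 2-fold higher than the wild type in both null libraries, against 5.24% of all genes tested. Col7a1 and Col14a1, which entered through the null libraries, were among the 10. In both null libraries 0 were 2-fold lower, against 2.71%. These folds are on the log2(CPM + 0.5) scale, and with 5 CPM added in place of 0.5 the 10 genes became 3. At 5 CPM the share over all genes was not taken, so the 3 have no background beside them. The median log2 fold change over the 29 was 0.59, against 0.014 over all genes, it was 0.27 without Sox7-null 1 and 0.62 without Sox7-null 2, and it was 0.15 once a trend on exon length and GC content was removed. The lone wild-type library carries no estimate of its own spread, and the fit gave it the spread of the null ones.

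**Figure D3:**
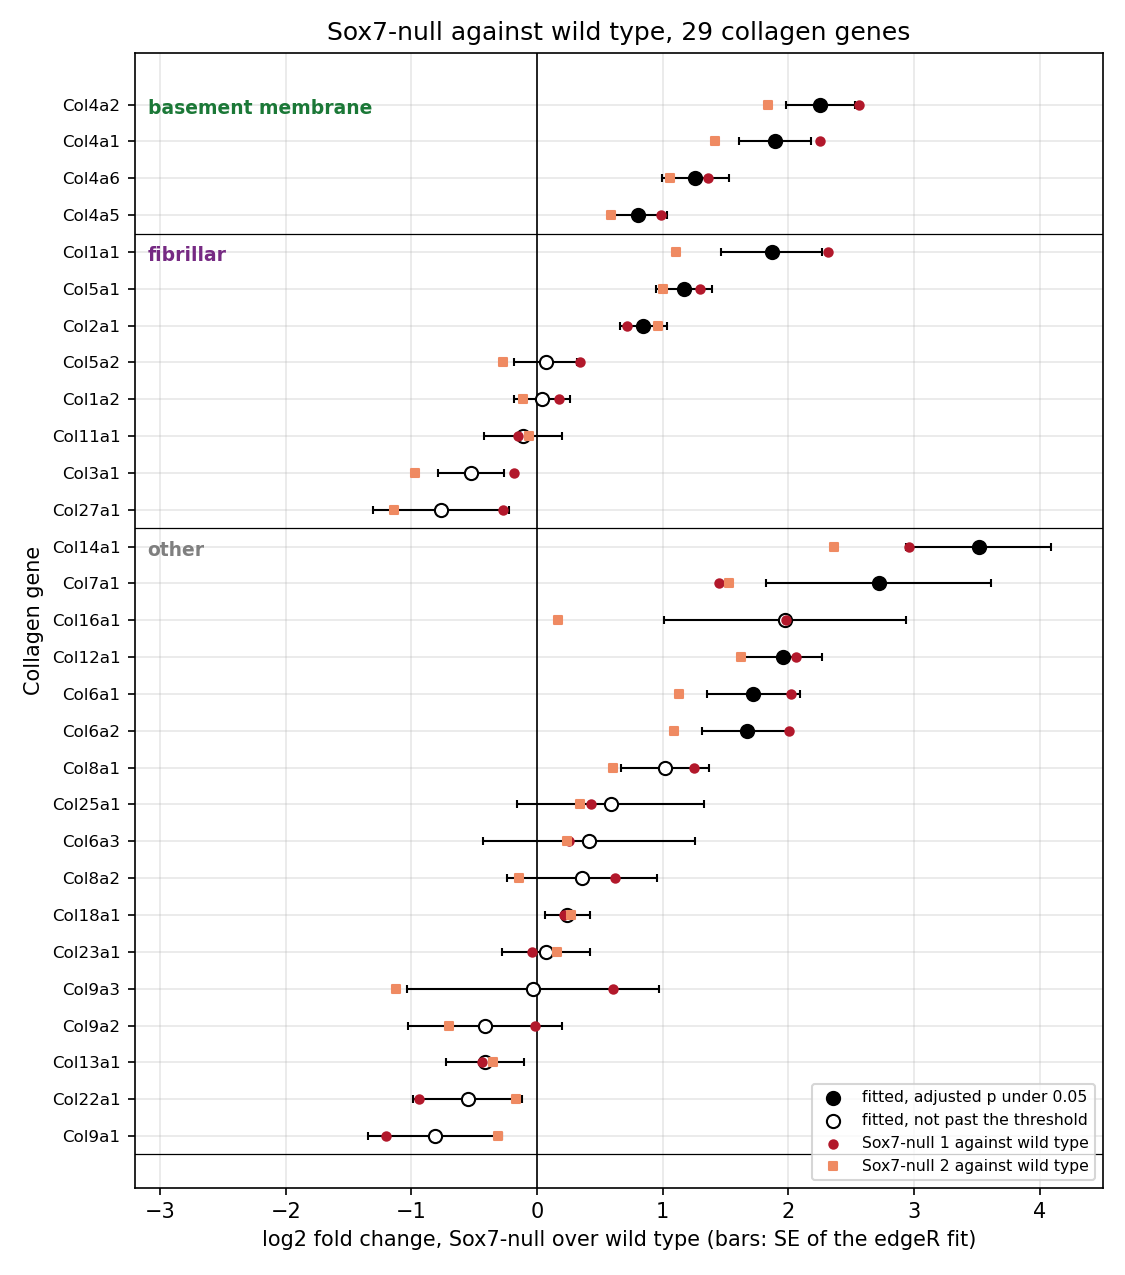
Log2 fold changes of 29 collagen genes in Sox7-null against wild-type heart tubes, grouped by class. Large circles are fitted values with SE bars, filled where the adjusted p is under 0.05, and small points are the log2 ratios of CPM + 0.5 of each null library to the wild type, which are smaller than the fitted value for genes with few reads such as Col7a1 and Col14a1. All 4 type IV genes and 3 of 8 fibrillar genes are filled, against 11.3% called higher and 10.2% lower among all genes tested.

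Type IV chains were the class in which edgeR called every tested member. Of the 6 genes, 4 were tested and all 4 were called higher in the null heart tubes, against 11.3% of all genes. DESeq2 called 3 of the 4, beside 7.06% of all genes. Their median log2 fold change in edgeR was 1.58 (1.80 in the Sox7-null 1 library, 1.23 in the Sox7-null 2 library). Col4a1 and Col4a2 encode the chains of the form of type IV collagen found in nearly all basement membranes. Col4a1 had 6139 and 3515 reads in the null libraries, against 1266 in the wild type, and rose by a log2 change of 1.90 ± 0.29 (SE; edgeR adjusted p = 0.00115). Without Sox7-null 1 its log2 ratio of CPM + 0.5 to the wild type was 1.41, and without Sox7-null 2 it was 2.25, and DESeq2 gave it an adjusted p of 0.0505. Col4a2 had 4448 and 2749 reads against 735 and rose by 2.26 ± 0.28 (edgeR adjusted p = 0.000367). Both null libraries lay far above the wild type for both genes, and Sox7-null 1 was higher than Sox7-null 2, by 1.79-fold for Col4a1 and 1.65-fold for Col4a2.

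Col4a5 and Col4a6 encode chains of a second type IV network and lie side by side on the X chromosome. Col4a5 had 1142 and 883 reads in the null libraries, against 564 in the wild type, a log2 change of 0.81 ± 0.23 (edgeR adjusted p = 0.0244). Col4a6 had 310 and 256 reads against 115, a log2 change of 1.26 ± 0.27 (edgeR adjusted p = 0.00657). Both null libraries were above the wild type for both genes, and Sox7-null 1 was above Sox7-null 2 by 1.32-fold for Col4a5 and 1.24-fold for Col4a6. After removal of the length and GC trend Col4a1 stood at 1.34, Col4a2 at 1.67 and Col4a6 at 0.84, all still past the threshold, and Col4a5 at 0.52 (edgeR adjusted p = 0.0688) was not. That trend used exon length, and with one on the longest transcript Col4a6 stood at 0.73 and did not pass either. Col4a3 and Col4a4, whose chains form the network of the mature kidney filter, had 3 and 2 reads against 4, and 3 and 1 reads against 1, and were not tested.

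The 6 type IV genes lie in 3 head-to-head pairs, so that each pair shares the DNA between its starts. In the GENCODE M21 annotation of GRCm38 the genes Col4a1 and Col4a2 on chromosome 8 overlap at their starts by 22 bases, the starts of Col4a3 and Col4a4 on chromosome 1 are 72 bases apart, and those of Col4a5 and Col4a6 are 1309 bases apart. Reads in the overlap of Col4a1 and Col4a2 cannot be given to either without a known strand setting, which the sources used here do not state. Col4a1 with Col4a2 and Col4a5 with Col4a6 were called higher, and Col4a3 and Col4a4 had fewer than 10 reads. The RefSeq promoter of Col4a6 is shown because the region before its start holds no annotated exon. It runs over chrX:141474077-141474326 (GRCm38.p6, minus strand), the bases before the start, and capitals mark its GC box (GGGCGG or its reverse complement CCGCCC), the letters that the factor Sp1 is known to bind.
Col4a6: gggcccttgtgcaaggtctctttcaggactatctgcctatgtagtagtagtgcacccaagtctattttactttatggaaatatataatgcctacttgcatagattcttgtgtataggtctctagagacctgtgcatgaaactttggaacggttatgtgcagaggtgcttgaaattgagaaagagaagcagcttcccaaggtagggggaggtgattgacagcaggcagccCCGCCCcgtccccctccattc

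Fibrillar genes had no common direction. Of 11, 8 were tested, and 3 were called higher and 0 lower, against 11.3% and 10.2% of all genes. The median log2 fold change was 0.05, with 0.26 in the Sox7-null 1 library, -0.089 in the Sox7-null 2 library, and -0.35 after removal of the length and GC trend. Col1a1 had 941 and 413 reads in the null libraries, against 181 in the wild type, and its log2 change was 1.87 ± 0.40 (edgeR adjusted p = 0.00675). Sox7-null 1 was 2.33-fold above Sox7-null 2, both were above the wild type, and the log2 ratio was 1.11 without Sox7-null 1 and 2.31 without Sox7-null 2. DESeq2 gave Col1a1 an adjusted p of 0.221. Col1a2, the partner chain in type I collagen, had 453 and 379 reads against 395, with the wild type between the null libraries (log2 change 0.04 ± 0.22, edgeR adjusted p = 0.929). This value turned to -0.57, past the threshold, after removal of the length and GC trend, and to -0.46, not past it, with the trend on the longest transcript.

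Col5a1, a chain of the type V collagen that starts fibrils, had 1121 and 935 reads in the null libraries, against 445 in the wild type. It rose by 1.17 ± 0.22 (edgeR adjusted p = 0.00342) and stood at 0.58, still past the threshold, with the trend removed, and at 0.45, not past it, with the trend on the longest transcript. Col5a2, its partner, had 723 and 479 reads against 559, again with the wild type between the null libraries (0.07 ± 0.25, edgeR adjusted p = 0.879). Col2a1, best known as the collagen of cartilage and notochord, had 3250 and 3947 reads in the null libraries, against 1949 in the wild type. Its log2 change was 0.84 ± 0.19 (edgeR adjusted p = 0.00778), and with the trend removed it was 0.15 and did not pass (edgeR adjusted p = 0.646). Col2a1 was higher in Sox7-null 2 than in Sox7-null 1, as was Col7a1 alone among the other 11 called genes.

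Col3a1, the fibrillar collagen of extensible tissue such as vessel walls, had 1397 and 823 reads in the null libraries, against 1558 in the wild type. Both null libraries were below the wild type, and the log2 change of -0.52 ± 0.26 did not pass (edgeR adjusted p = 0.173). It was -0.97 with the trend removed and then passed. Col27a1, at 36 and 17 reads against 44, had a log2 change of -0.76 ± 0.54 (edgeR adjusted p = 0.339), and of -1.50 with the trend removed, which passed. With the trend on the longest transcript Col3a1 passed, at -0.94, and Col27a1 did not, at -1.52, though its change was no smaller. Col11a1, which joins Col2a1 in cartilage fibrils, had 100 and 109 reads against 110 (edgeR adjusted p = 0.831). Col3a1 and Col5a2 lie 24614 bases apart on chromosome 1, and neither was called.

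The promoters of Col5a1 and Col3a1 are given in RefSeq's GRCm38.p6 sequence as the bases before the start, because one gene rose and the other did not pass, and because they differ in the letters searched. Col5a1 lies on the plus strand at chr2:27886175-27886424, and capitals mark GC boxes and CACGT, the reverse complement of the hypoxia factor core ACGTG. Col3a1 lies on the plus strand at chr1:45311288-45311537, and capitals mark AACAAT, the core known to be bound by Sox factors, read on both strands of one palindrome.
Col5a1: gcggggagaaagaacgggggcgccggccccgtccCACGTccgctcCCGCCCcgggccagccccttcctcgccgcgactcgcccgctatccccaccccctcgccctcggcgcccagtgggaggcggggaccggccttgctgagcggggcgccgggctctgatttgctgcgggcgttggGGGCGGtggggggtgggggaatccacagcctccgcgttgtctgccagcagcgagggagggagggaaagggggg
Col3a1: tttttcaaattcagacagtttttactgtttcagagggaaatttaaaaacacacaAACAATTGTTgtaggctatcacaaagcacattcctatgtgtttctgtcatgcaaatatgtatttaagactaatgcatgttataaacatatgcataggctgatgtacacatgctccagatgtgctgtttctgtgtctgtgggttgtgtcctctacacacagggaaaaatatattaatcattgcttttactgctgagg

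RefSeq promoter windows, of 250 bases before and 50 after the start, were matched for 35 of the 43 genes, 8 of them called higher. Col3a1 was the 1 gene of the 35 with AACAAT or its reverse complement ATTGTT in the window, against 10.7% of all 32851 windows. GGGCGG or CCGCCC stood in 7 of the 8 called genes, in 17 of the 22 tested genes with a window, and in 22 of the 35, against 35.7% of all windows. The CCAAT box (CCAAT or ATTGG) stood in 4 of the 8, 10 of the 22 and 13 of the 35, against 37.4%. ACGTG or CACGT stood in 1 of the 8, Col5a1, in 2 of the 22 and in 5 of the 35, against 19.6%. CACGTG would hold both forms of that core. A gene with several starts was counted once if any window matched, while the share over all windows counts each start, and a match or its absence in these letters is a description only.

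Beyond these classes, 17 of the other 26 genes were tested, and 5 were called higher and 0 lower, against 11.3% and 10.2% of all genes. Of the 5, Col7a1 and Col14a1 had entered through the null libraries. The median log2 fold change of the 17 was 0.41, or -0.048 after removal of the length and GC trend. Of the 3 tested chains of the type VI beaded filaments 2 were higher. Col6a1 had 342 and 186 reads in the null libraries, against 78 in the wild type (log2 change 1.72 ± 0.37, edgeR adjusted p = 0.00689). Col6a2 had 501 and 268 reads against 118 (1.67 ± 0.35, edgeR adjusted p = 0.00625). These genes, both on chromosome 10, had null libraries that differed by 1.88-fold and 1.91-fold, Sox7-null 1 being the higher, and without it their log2 ratios were 1.13 and 1.09. Col6a3, the third chain, lay near the limit of 10 reads at 11 and 11 reads against 8 (0.41 ± 0.84, edgeR adjusted p = 0.767).

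Among FACIT collagens, which coat the surface of fibrils, 2 of 7 tested were higher, against 11.3% of all genes. Of the 7, Col14a1 and Col16a1 had entered through the null libraries, so this count describes the 7 only. Col12a1 had 306 and 229 reads in the null libraries, against 67 in the wild type, a log2 change of 1.96 ± 0.31 (edgeR adjusted p = 0.00141). Col14a1 had 101 and 66 reads against 7, a fold of 11.6 on summed reads (95% exact interval 5.51 to 29.3), with a log2 change of 3.52 ± 0.58 (edgeR adjusted p = 0.00166), the largest among the 29. Both genes kept their calls with the trend removed, at 1.59 and 3.28. The other 5 did not pass. Col16a1 had 48 and 9 reads against 7, so that its value of 1.97 ± 0.96 (edgeR adjusted p = 0.164) rested on Sox7-null 1 and was a log2 ratio of 0.17 without it. The type IX chains, known from cartilage, had 17 and 38 reads against 47 for Col9a1, 26 and 14 against 26 for Col9a2, and 22 and 2 against 12 for Col9a3. Col22a1, a collagen of tissue junctions, had 35 and 66 reads against 72.

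Col7a1, the anchoring fibril of skin, had 20 and 22 reads in the null libraries, against 3 in the wild type, a fold of 6.81 on summed reads (95% exact interval 2.18 to 34.3). Its adjusted p of 0.0468 in edgeR was the weakest call among the 12, and it was 0.0858 with limma-voom and 0.129 with the trend removed, while DESeq2 gave none. Col8a1, a network collagen of endothelium and smooth muscle, had 203 and 130 reads against 80 and missed the threshold (1.02 ± 0.35, edgeR adjusted p = 0.0537). It passed with the trend removed, at 0.85. It did not pass with the trend on the longest transcript, at 0.86, though the change was no smaller. Col8a2 had 38 and 20 reads against 22. Col18a1, the basement membrane multiplexin whose fragment is endostatin, had 2387 and 2532 reads in the null libraries, against 2024 in the wild type. Its log2 change of 0.24 ± 0.18 did not pass (edgeR adjusted p = 0.360), and it was -0.35 with the trend removed. The membrane-spanning collagens gave 0 calls among 3 tested, with 90 and 98 reads against 122 for Col13a1, 75 and 89 against 76 for Col23a1, and 16 and 15 against 10 for Col25a1.

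The 14 genes under 10 reads in every library gave no comparison. Col6a4 and Col6a6 had 0 reads in all 3 libraries. Besides Col4a3, Col4a4 and Col20a1, the others were Col5a3, Col6a5, Col11a2 and Col28a1, with 1 read each in all, Col10a1 (0 and 1 against 2), Col15a1 (4 and 1 against 1), Col17a1 (2 and 0 against 3), Col19a1 (3 and 1 against 0) and Col24a1 (0 and 4 against 0). They include the hypertrophic cartilage collagen Col10a1 and the hemidesmosome collagen Col17a1 of skin. A count of 0 allows up to 3 reads in a library.

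Ratios between the chains of a molecule, taken per transcript base within a library, do not depend on the scaling of libraries. Col1a1 over Col1a2 was 1.87 (95% exact interval 1.67 to 2.10) and 0.983 (0.853 to 1.13) in the null libraries, against 0.413 (0.345 to 0.494) in the wild type. Per base of all annotated exons, a measure added after seeing the data, the same ratio was 3.93 and 2.06 in the null libraries, against 0.868 in the wild type. The choice of length multiplies a ratio alike in all 3 libraries, so that it sets the level and not the comparison between libraries. Col5a1 over Col5a2 was 1.22 and 1.54 in the null libraries, against 0.627 in the wild type, and Col1a1 over Col3a1 was 0.632 and 0.471 against 0.109. In these ratios both null libraries lay above the wild type by more than counting error. Col4a1 over Col4a2 was 1.35 and 1.25 in the null libraries, against 1.68 in the wild type, and the intervals did not overlap. Col4a5 over Col4a6 was 3.75 and 3.51 against 4.99, and the interval of the wild type (4.08 to 6.15) overlapped that of Sox7-null 1 (3.30 to 4.26) and not that of Sox7-null 2 (3.05 to 4.05). Col4a1 over Col4a5, which sets the common type IV network beside the second one, was 5.31 and 3.93 against 2.22. Col6a1 over Col6a2 was 0.818 and 0.831 in the null libraries, against 0.792 (0.587 to 1.06) in the wild type, and these intervals overlapped.

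**Figure D4:**
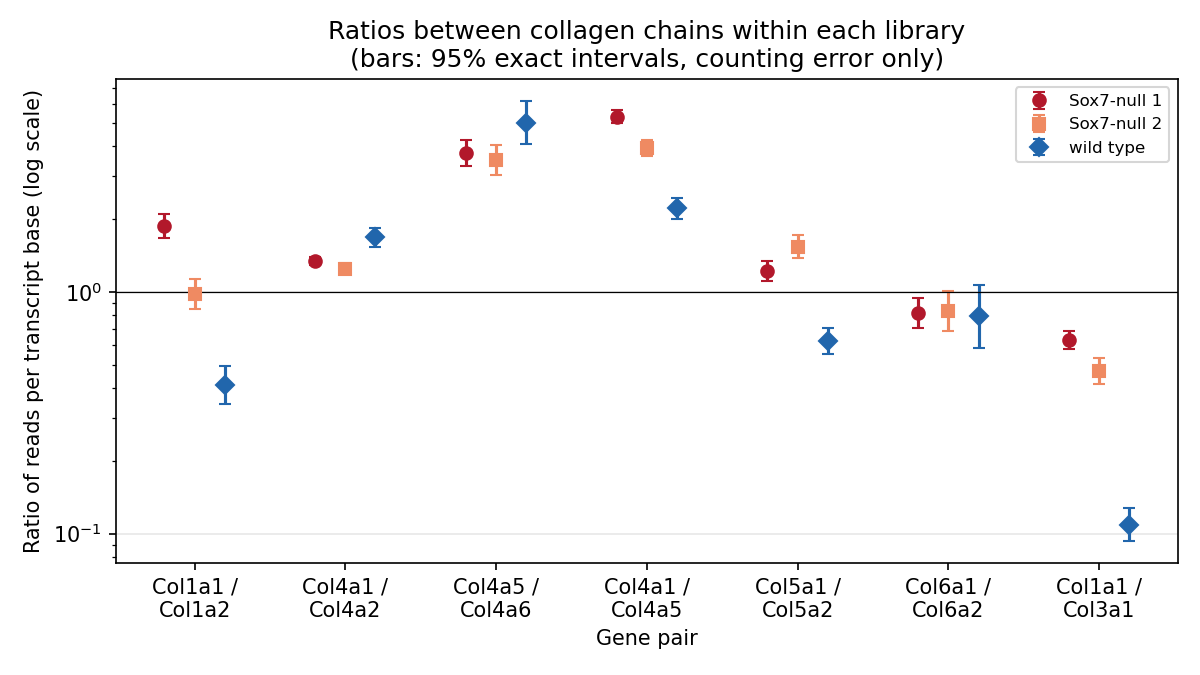
Ratios of reads per base of the longest transcript between pairs of collagen genes within each library, on a log axis, with 95% exact intervals for counting error as bars. The ratio of Col1a1 to Col1a2 is 1.87 and 0.983 in the null libraries, against 0.413 in the wild type, while that of Col6a1 to Col6a2 is 0.818 and 0.831 in the null libraries, against 0.792, with intervals that overlap.

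Collagen transcripts are long, and fold changes in these libraries moved with length. The summed exons of the 43 genes covered from 3095 to 15228 bases, with a median of 7464. When all tested genes were cut into 4 classes of about equal size by exon length, the median log2 fold change went up with length, at -0.27, -0.04, 0.09 and 0.21. In the longest class (6906 bases or more) 16.1% of genes were called higher and 4.18% lower, whereas in the shortest (up to 2812 bases) 6.72% were higher and 19.4% lower. Of the 29 collagen genes 18 were in the longest class, where 8 were called higher and their median was 0.72, and 8 in the next, where 3 of 8 were called higher and 0 lower, against 12.8% and 7.15% of all its genes. The other 3 lay in the second class, where 1 was called against 9.75%, and 0 in the shortest. Once the trend on length and GC was removed, 10 collagens were higher and 3 lower, beside 10.5% and 12% of all genes, the lower being Col1a2, Col3a1 and Col27a1. Those calls came from the fit that set no bound to its prior degrees of freedom. Col4a2, Col6a1, Col6a2, Col12a1 and Col14a1 were the 5 genes that stayed higher with DESeq2, limma-voom, both other scalings and the trend removed on either measure of length. That count leaves out 2 settings. With no filter on low counts 0 collagens were called, and at a mean of at least 5 CPM Col14a1 was not tested. Whether the trend has a technical or a biological source was not tested.

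**Figure D5:**
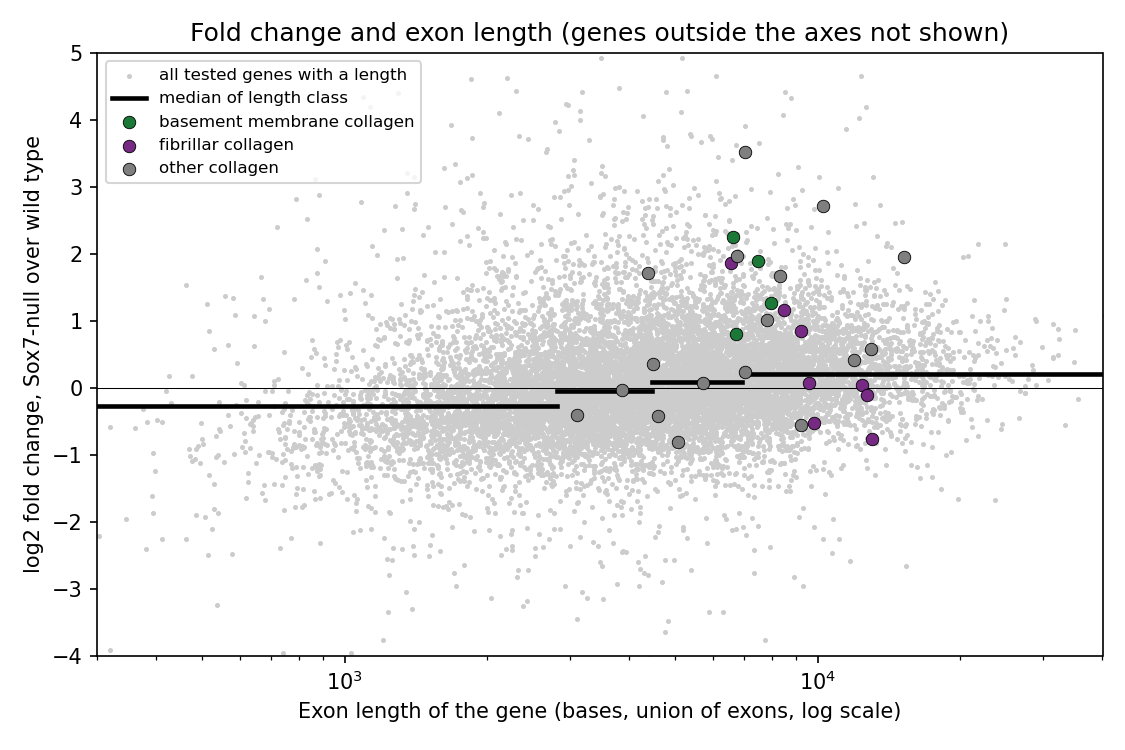
Log2 fold change of all tested genes (grey) and of the 29 collagen genes (coloured by class) against exon length on a log axis, with the median of each of 4 length classes as a black bar. The medians go from -0.27 in the shortest class to 0.21 in the longest, and all 4 type IV genes lie above the bars.

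Genes that process collagen were examined as a list of 37, of which 33 were tested. Of these 15 were called higher and 2 lower, against 11.3% and 10.2% of all genes, and the median log2 fold change was 0.76. Lox (127 and 53 reads against 4, called higher) and Adamts14 (38 and 11 against 5, not called) entered through the null libraries. Lumican, called lower, entered through the wild type, so these counts describe the 33 only. Of the 3 catalytic subunits of the prolyl 4-hydroxylase, whose product stabilises the collagen helix, 2 rose. P4ha1 had 5200 and 3923 reads in the null libraries, against 1425 in the wild type (1.64 ± 0.21), and P4ha2 had 3878 and 2813 against 458 (2.83 ± 0.25, edgeR adjusted p = 4.78e-05), while P4ha3 had 37 and 19 against 15 and did not pass. The lysyl hydroxylase Plod2 rose by 2.04 ± 0.24 and the lysyl oxidase Loxl2, which crosslinks type IV collagen, by 1.87 ± 0.23. The prolyl 3-hydroxylase P3h2 (Leprel1 in the files) rose by 2.54 ± 0.37, and the proteoglycan biglycan (Bgn), which binds fibrils, by 2.35 ± 0.36. The 2 lower genes were Pcolce2 (-2.06 ± 0.61), an enhancer of procollagen cleavage, with 7 and 12 reads against 39, and lumican (Lum, -2.71 ± 0.84), with 2 and 5 against 23. DESeq2 gave neither an adjusted p. The collagen chaperone Serpinh1 (0.35 ± 0.14, edgeR adjusted p = 0.0919) did not pass.

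Of 12 collagen receptors and collagen-binding genes 10 were tested, and 6 were called higher and 0 lower, against 11.3% and 10.2% of all genes (median log2 fold change 0.96). Gp6 (27 and 30 reads against 5, called higher) and Itga11 (16 and 8 against 3, not called) entered through the null libraries. Itga10 (5 and 5 against 21, not called) entered through the wild type, so these counts describe the 10 only. By smallest p the 6 higher genes began with Itgb1, the beta subunit of the collagen-binding integrins, with 11564 and 9881 reads in the null libraries against 6204 in the wild type (0.75 ± 0.17), and the discoidin receptor Ddr1 (0.81 ± 0.19). Adgrg1 (Gpr56 in the files), an adhesion receptor that binds type III collagen, rose by 1.12 ± 0.27, and the integrin subunit Itga1, which prefers type IV collagen, by 1.32 ± 0.37, with 874 and 408 reads against 251. DESeq2 and limma-voom each called 3 receptors higher, beside 7.06% and 9.39% of all genes, and DESeq2 gave Itga1 an adjusted p of 0.398. Once the length and GC trend was removed, 4 receptors were higher, without Ddr1 and Mrc2, and Itga10 and Adgrg6 (Gpr126 in the files) were lower, beside 10.5% and 12% of all genes.

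Markers of the cells that could make these collagens differed in direction, and the counts of called genes below stand beside 11.3% higher and 10.2% lower among all genes. Endothelial and endocardial markers summed to 449 and 444 CPM in the null libraries, against 452 in the wild type, with 1 of 7 higher and 2 lower. Cushion mesenchyme and fibroblast markers summed to 1612 and 1239 CPM against 882. Most of that was the proteoglycan gene Vcan, at 1509 and 1144 CPM against 727, which was higher, while Twist1 and Sox9 were lower among the 6. Epicardial markers summed to 241 and 153 CPM against 164, with Wt1 higher among 5. Smooth muscle and mural markers summed to 5017 and 6577 CPM against 4465, with 2 of 6 higher, Tagln and Cnn1. Most of the sum was Acta2, at 3258 and 4548 CPM against 3323, and Tagln, at 1514 and 1819 against 1032. Acta2, Myh11, Pdgfrb and Rgs5 were not called, and Myh11 had only 1.41 and 2.47 CPM against 1.66. Myocardial markers summed to 9496 and 7434 CPM against 3614, with 5 of 6 higher. Platelet markers summed to 210 and 119 CPM against 30.5, with 4 of 4 higher, and this list and Gp6, a platelet collagen receptor that was among the 6 higher receptors, are markers of the same cell. Of the notochord and cartilage markers set beside Col2a1, Hapln1 made up nearly all reads, the sum was 325 and 456 CPM against 568, and the notochord gene T had 0 and 0 reads against 19. Foregut and liver markers summed to 1.26 and 1.45 CPM against 41.6, with 5 of 6 lower. All 6 had fewer than 10 reads in both null libraries and entered the test through the wild type. They had to be lower in the null libraries, so this count describes them only. Red blood cell markers summed to 4486 and 14233 CPM against 13818, macrophage markers to 15.3 and 7.55 against 11.8, neural tube markers to 26.9 and 12.2 against 14.9, with Sox1 and Neurog2 at 0, and surface ectoderm markers to 1.19 and 1.16 against 4.22. Reads not uniquely aligned were 10.4% and 11.6% in the null libraries, against 22.3% in the wild type. The part of any of these in the collagen values was not tested.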

How the data were processed

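Counts as deposited are whole numbers of reads for each gene, with a file for each library. HTSeq, TopHat2 and CASAVA stand in the submitters' processing notes, beside DESeq2 1.10.1. The notes name human builds while the symbols are of mouse, so coordinates and lengths come from GENCODE M21 and RefSeq (GRCm38.p6) and not from the files. The labels' protocol names retinal cultures and the tissue label the heart tube. Of 6 retina markers 4 had 0 reads in all libraries and the others at most 3, whereas myocardial markers were high. The 5 HTSeq summary lines were left out, and reads in no feature were 8.10% and 8.52% of all reads in the null libraries, against 11.7% in the wild type. The annotation and strand setting are not stated in the sources used here, so overlapping genes are uncertain.

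Counts were tested with edgeR 4.0.16 (TMM, filterByExpr with a minimum count of 10, glmQLFit and glmQLFTest) in R 4.3.3 over all 13334 genes kept, with 1 residual and 11.8 prior degrees of freedom and a biological coefficient of variation of 15.0%. Alternatives were DESeq2 1.42.0, limma-voom (limma 3.58.1), other scalings and filters, each null library left out, and a smooth trend on length and GC removed as offsets (mgcv 1.9.3). Of the symbols, 20953 were current in GENCODE and 1920 older, and 127 tested genes had no length. The collagen genes, their classes and the lists were chosen with earlier results of these data known. Every collagen gene is named, and of the processing and receptor lists up to 6 and 4 called genes by smallest p, with others where a description needs them.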

Additional observations from a re-analysis of the deposited data

How the results depend on the processing

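Counts of calls are given as higher and lower. With DESeq2 all genes gave 941 and 721, against 1508 and 1366, processing genes 0 lower against 2, and receptors 3 higher against 6, as did limma-voom (3). Without a filter on low counts edgeR had 3.23 prior degrees of freedom and called 0 genes at all, collagens included, while 4113 genes and 12 collagens had an unadjusted p under 0.05, and the medians of all, fibrillar, type IV and other collagens were 0.90, 0.86, 1.09 and 0.77. At a mean of at least 5 CPM fewer genes were tested, the medians of all and of other collagens were 0.94 and 1.03, and 3 other collagens, 3 receptors and 0 lower processing genes were called. With the length and GC trend removed, where edgeR set no bound to its prior degrees of freedom, 3 collagens (all fibrillar) and 2 receptors were lower, beside 12% of all genes. The 4 medians were then 0.15, -0.35, 1.09 and -0.048, and Col1a2 turned to -0.57. The same trend on the longest transcript, chosen after seeing the data, gave 7 collagens higher and 1 lower, 1 and 1 of them fibrillar, 2 type IV higher, 1 processing gene and 2 receptors lower, and medians of 0.22, -0.39, 0.98 and -0.13. Of all 13334 genes, 1098 were higher and 1145 lower in that setting. With 1 null library left out there is no test, and the medians ran from 0.27 to 0.62 (all), -0.089 to 0.26 (fibrillar), 1.23 to 1.80 (type IV) and 0.23 to 0.60 (other). A pseudocount of 5 CPM, for which no share over all genes was taken, left 3 collagens 2-fold higher in both null libraries, against 10. The cause was not tested. Other scalings, and the multiplexins counted with type IV, kept each collagen count within 1.5 times. No paired analysis was possible because the labels share no replicate numbers between the groups. Depth limits what can be said of the 14 genes under 10 reads.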

Other observations

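The files list Col26a1 under its older symbol Emid2, which the naming rule does not take. It had 165 and 121 reads in the null libraries, against 135 in the wild type, and its log2 fold change of 0.05 ± 0.30 did not pass (edgeR adjusted p = 0.936). The gene was looked up after the collagen values were seen.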
